A study of Phaseolus vulgaris with 18 samples.

Results

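The 5 genes described here belong to the chlorophyll branch of porphyrin synthesis in common bean (Phaseolus vulgaris). They were taken by name from a table of 25124 genes, and all 5 were found and passed the filter on low counts. Phvul.007G252700 and Phvul.001G132200 are described in the table as magnesium-chelatase H subunits, Phvul.002G281900 as a magnesium-protoporphyrin IX methyltransferase, and Phvul.011G148900 and Phvul.005G083700 as protochlorophyllide oxidoreductase A. The golden line A18-1 has pods that turn gold while they grow and carries the golden pod trait mapped as pv-ye. The green line Renaya keeps green pods until it ripens. RNA came from walls of pods taken 10, 14 and 18 days after flowering (DAF), in 3 libraries for each line and age, from untreated plants of a climate chamber. Each pod colour is represented by 1 line, so colour and the rest of a line's genotype cannot be told apart.

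Plants make chlorophyll in plastids from protoporphyrin IX, where iron insertion leads to haem and magnesium insertion leads to chlorophyll. Magnesium chelatase, an enzyme of H, I and D subunits, places the magnesium, and its H subunit is the part that binds the porphyrin. The methyltransferase then adds a methyl group to magnesium-protoporphyrin IX, a cyclase closes the isocyclic ring, and protochlorophyllide oxidoreductase reduces protochlorophyllide to chlorophyllide in a step that needs light in flowering plants. Young bean pod walls are green and hold chloroplasts.

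Levels are given in FPKM, the fragments of a gene divided by its length and by the depth of its library, which allows levels of different genes to be compared per length. Total counts per library ran from 48757139 to 74377200, and the replicates are independent repeats per the design text. A label field names leaf where the design text names pod wall, so markers were read. Of 27 genes described as fruit wall MADS-box factors or a broad MADS-box class that holds them, 16 were detected, with sums of 889.5 to 1329 FPKM in golden libraries and 592.9 to 1063 FPKM in green libraries. Of 175 genes matched as seed markers by description, 104 were detected. The words matched included cupin and late embryogenesis, broad classes that are not limited to seed proteins, so the sums do not measure seed RNA alone. Their sums were 11973 to 13204 FPKM in golden libraries and 6677 to 7311 FPKM in green libraries at 10 DAF, 7933 to 8891 FPKM in golden and 9709 to 11937 FPKM in green libraries at 14 DAF, and 6027 to 9822 FPKM in golden and 6452 to 8573 FPKM in green libraries at 18 DAF. These markers do not tell pod wall from leaf by themselves, and the part of seed RNA in the results was not tested. Replicate 2 of the golden line at 18 DAF had a correlation to replicate 1 of 0.914 across genes in log2 CPM (counts scaled to library size), the lowest of all replicate pairs. Its correlation to replicate 3 was 0.950. It stood apart from its group in the levels of some genes given below, and its values are marked there.

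The magnesium-chelatase H gene Phvul.007G252700 was higher in the golden line at all 3 ages. Its level was 44.9, 39.7 and 70.1 FPKM in golden and 10.2, 9.90 and 9.58 FPKM in green libraries at 10 DAF (replicates 1, 2 and 3, as in all lists of 3 levels). At 14 DAF the golden libraries held 99.1, 102 and 47.7 FPKM and the green libraries 5.40, 8.13 and 20.6 FPKM. At 18 DAF the values were 37.1, 112 and 53.9 FPKM in golden and 7.47, 15.3 and 5.06 FPKM in green libraries. The lowest golden library of any age lay above the highest green library of any age, and golden libraries at 14 and 18 DAF were spread widely. The golden level was 5.25-fold (95% interval 2.37 to 11.6) that of the green line at 10 DAF (log2 fold change 2.39, SE 0.54, edgeR adjusted p = 0.00395), by edgeR's quasi-likelihood test with Benjamini-Hochberg adjustment over 22805 genes, in which SE is the standard error. Genes are said to pass, or to be called, at an adjusted p under 0.05. It was 7.34-fold (95% interval 3.27 to 16.5) at 14 DAF (log2 fold change 2.88, SE 0.55, edgeR adjusted p = 0.00107) and 8.18-fold (95% interval 3.62 to 18.5) at 18 DAF (log2 fold change 3.03, SE 0.55, edgeR adjusted p = 0.00214). Without green replicate 3 at 14 DAF, the highest green library, the log2 fold change at that age was 3.55, and without golden replicate 2 at 18 DAF it was 2.41. From the highest mean to the lowest, the order was golden at 14, 18 and 10 DAF, then green at 14, 10 and 18 DAF. The one gap between neighbours in this order was between golden at 10 DAF and green at 14 DAF, and the ranges of all other neighbours overlapped. In these bulk samples fewer green cells and less RNA per cell cannot be told apart.

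The other H gene, Phvul.001G132200, was the more abundant of the pair in every library. Golden libraries held 143, 121 and 172 FPKM and green libraries 88.2, 83.4 and 81.7 FPKM at 10 DAF. At 14 DAF the levels were 154, 146 and 120 FPKM in golden and 40.4, 48.1 and 67.0 FPKM in green libraries. At 18 DAF they were 115, 202 and 154 FPKM in golden and 62.0, 58.8 and 30.7 FPKM in green libraries. The lines did not overlap at any age, and replicate 2 of the golden line was the highest library at 18 DAF. The gene was 2.69-fold (95% interval 1.80 to 3.996) higher in the golden line at 14 DAF (log2 fold change 1.43, SE 0.27, edgeR adjusted p = 0.00102) and 3.42-fold (95% interval 2.29 to 5.12) higher at 18 DAF (log2 fold change 1.78, SE 0.27, edgeR adjusted p = 6.16e-04). At 10 DAF it was 1.73-fold (95% interval 1.17 to 2.56) higher (log2 fold change 0.79, SE 0.27, edgeR adjusted p = 0.0335), a call that was lost when any of 5 of the 6 libraries was left out, all but golden replicate 2, with edgeR adjusted p up to 0.132. Golden groups filled the top of the order with overlapping ranges (18, then 10, then 14 DAF). Below them green at 10 DAF stood apart from green at 14 DAF, whose range overlapped that of green at 18 DAF.

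**Figure D1:**
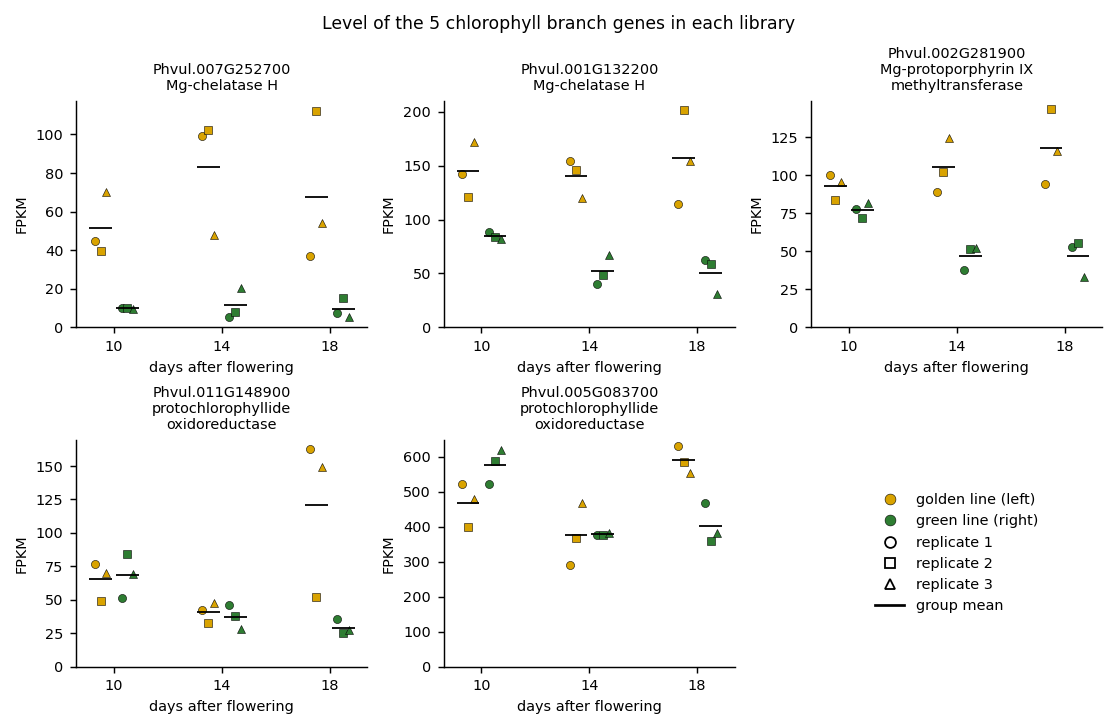
Level of each of the 5 genes in FPKM (vertical axis, linear, from 0) against days after flowering, with 1 point per library, golden libraries left of green libraries and a line at each group mean. Both magnesium-chelatase H genes are higher in golden than in green libraries at each age, while both protochlorophyllide oxidoreductase genes lie above the green range in all golden libraries at 18 DAF only.

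The balance of the H genes also differed between the lines. Phvul.007G252700 made up 25.9% ± 2.74, 36.3% ± 6.86 and 28.7% ± 6.14 of the summed FPKM of the pair in golden libraries at 10, 14 and 18 DAF, and 10.5% ± 0.128, 16.6% ± 6.15 and 15.2% ± 5.03 in green libraries (SD, n = 3). A ratio within a library does not depend on how libraries are scaled. The log2 ratio of Phvul.007G252700 to Phvul.001G132200 was 1.45 higher in the golden line over the 3 ages (two-sided exact permutation test within ages, p = 0.00025, the smallest that its 8000 regroupings can give). The difference was 1.57 at 10 DAF, 1.56 at 14 DAF and 1.201 at 18 DAF, each with an exact permutation p of 0.1, the smallest that 3 against 3 libraries allow. Golden libraries ran from -1.67 to -0.51 and green libraries from -3.12 to -1.70. The summed level of the pair averaged 196.7 ± 41.2, 223.0 ± 48.0 and 224.6 ± 82.2 FPKM in golden libraries at 10, 14 and 18 DAF, against 94.3 ± 3.62, 63.2 ± 21.8 and 59.8 ± 20.9 FPKM in green libraries (SD, n = 3). Reads of similar copies may have been split between them by the authors' counting, so the share of each gene is less certain than the sum.

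The methyltransferase gene Phvul.002G281900 acts right after the chelatase and was higher in the golden line at 14 and 18 DAF. At 10 DAF golden libraries held 100, 84.0 and 95.5 FPKM and green libraries 78.1, 71.9 and 81.8 FPKM. The ranges stood just apart, yet the difference was 0.28 with a 95% interval of -0.16 to 0.72 (edgeR adjusted p = 0.312), which did not pass. At 14 DAF the levels were 89.3, 102 and 125 FPKM in golden and 37.8, 51.8 and 51.9 FPKM in green libraries. At 18 DAF they were 94.5, 144 and 116 FPKM in golden and 52.9, 55.2 and 32.8 FPKM in green libraries. Every golden library lay above every green one at both later ages. The gene was 2.22-fold (95% interval 1.63 to 3.02) higher in the golden line at 14 DAF (log2 fold change 1.15, SE 0.21, edgeR adjusted p = 7.87e-04) and 2.76-fold (95% interval 2.03 to 3.77) higher at 18 DAF (log2 fold change 1.47, SE 0.21, edgeR adjusted p = 3.71e-04). The order of its levels was golden at 18, 14 and 10 DAF with overlapping ranges, then green at 10 DAF, then green at 14 and 18 DAF, which overlapped each other.

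The protochlorophyllide oxidoreductase gene Phvul.011G148900 had overlapping levels in the lines at 10 and 14 DAF and was higher in the golden line at 18 DAF. Golden libraries held 76.7, 48.98 and 69.9 FPKM and green libraries 51.4, 84.0 and 68.9 FPKM at 10 DAF. At 14 DAF the values were 42.4, 32.6 and 47.5 FPKM in golden and 45.7, 37.9 and 27.9 FPKM in green libraries. At 18 DAF they were 163, 52.0 and 149 FPKM in golden and 35.3, 25.3 and 27.0 FPKM in green libraries. Golden replicate 2, which was the highest library of its group for both H genes and the methyltransferase, was the lowest here, and it still lay above the green range. The differences on the log2 scale were -0.05 with a 95% interval of -0.77 to 0.67 (edgeR adjusted p = 0.928) at 10 DAF and 0.11 with a 95% interval of -0.62 to 0.83 (edgeR adjusted p = 0.821) at 14 DAF, so differences within these intervals were not resolved. At 18 DAF the golden level was 4.46-fold (95% interval 2.65 to 7.52) that of the green line (log2 fold change 2.16, SE 0.35, edgeR adjusted p = 0.00103). Without golden replicate 2 the log2 fold change at 18 DAF was 2.52 (edgeR adjusted p = 7.33e-05). Golden at 18 DAF headed the order, followed by green at 10 DAF and golden at 10 DAF, all with overlapping ranges. Golden at 14 DAF stood apart below them and overlapped green at 14 DAF, which overlapped green at 18 DAF.

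Phvul.005G083700 was the more abundant oxidoreductase gene and the most abundant of the 5 genes in every library. Golden libraries held 521, 399 and 477 FPKM and green libraries 521, 587 and 618 FPKM at 10 DAF. At 14 DAF the levels were 291, 368 and 467 FPKM in golden and 377, 376 and 382 FPKM in green libraries. At 18 DAF they were 630, 584 and 553 FPKM in golden and 466, 359 and 383 FPKM in green libraries. At 10 DAF the 2 ranges nearly touched with the golden one lower, at 14 DAF they overlapped, and at 18 DAF all golden libraries lay above all green ones. The log2 difference was -0.29 with a 95% interval of -0.69 to 0.10 (edgeR adjusted p = 0.237) at 10 DAF and -0.03 with a 95% interval of -0.42 to 0.37 (edgeR adjusted p = 0.917) at 14 DAF. At 18 DAF the golden level was 1.60-fold (95% interval 1.21 to 2.11) that of the green line (log2 fold change 0.68, SE 0.19, edgeR adjusted p = 0.0240). That call was lost without any of 4 libraries, golden replicates 1 and 2 and green replicates 2 and 3, with edgeR adjusted p up to 0.0911. It was also lost when the 2 groups were fitted alone (edgeR adjusted p = 0.193), as was the call of Phvul.001G132200 at that age (edgeR adjusted p = 0.0593). In the order of levels golden at 18 DAF and green at 10 DAF overlapped and stood apart from golden at 10 DAF, below which green at 18 DAF, green at 14 DAF and golden at 14 DAF overlapped in turn.

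The minor oxidoreductase gene held a larger share of its pair in the golden line at 18 DAF. Phvul.011G148900 made up 12.2% ± 1.08, 10.0% ± 2.39 and 16.6% ± 7.33 of the pair's FPKM in golden libraries at 10, 14 and 18 DAF, and 10.5% ± 1.81, 8.92% ± 2.02 and 6.74% ± 0.259 in green libraries (SD, n = 3). Its log2 ratio to Phvul.005G083700 was 0.59 higher in the golden line over the ages (two-sided exact permutation test within ages, p = 0.0205). By age the difference was 0.25 at 10 DAF (exact permutation p = 0.2), 0.19 at 14 DAF (exact permutation p = 0.5) and 1.35 at 18 DAF (exact permutation p = 0.1, the smallest possible). Most of the pooled difference therefore came from 18 DAF. The share at that age was 20.5%, 8.18% and 21.2% in golden and 7.04%, 6.58% and 6.60% in green libraries. Golden replicate 2 thus lay only a little above the green range of that age. The summed level of the pair was 531.1 ± 76.1, 416.2 ± 91.5 and 710.2 ± 78.7 FPKM in golden libraries, against 643.6 ± 62.0, 415.7 ± 6.50 and 431.7 ± 61.6 FPKM in green libraries (SD, n = 3). Both genes carry the same description in the table, so the table does not say which Arabidopsis isoform each is closest to in function.

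**Figure D2:**
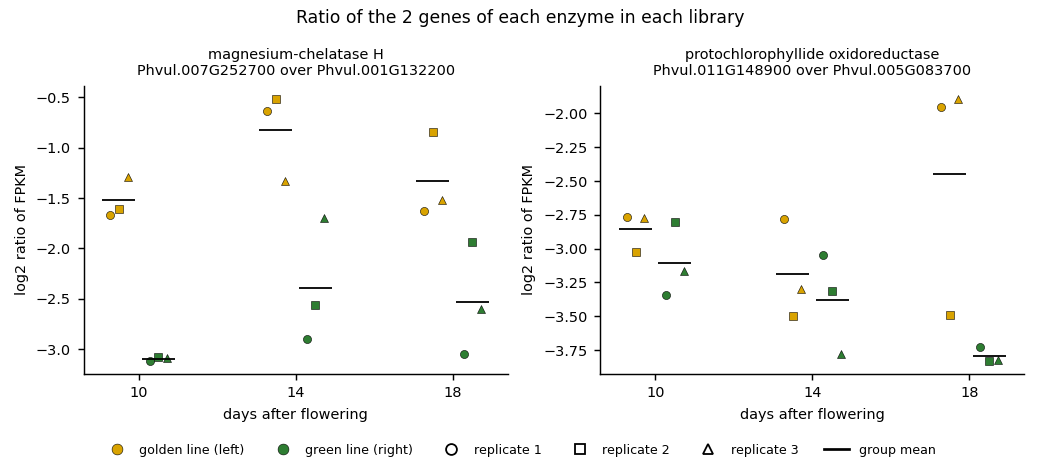
Log2 ratio of the FPKM of the 2 genes of each enzyme (vertical axes) in every library against days after flowering, golden left of green, with a line at each group mean. The H gene ratio is higher in golden than in green libraries of the same age throughout (mean difference 1.45), and the oxidoreductase ratio of golden libraries at 18 DAF includes 1 low library, replicate 2.

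Set side by side, 2 of the 5 genes passed the test between lines at 10 DAF, where 32.6% of all tested genes did. At 14 DAF 3 of the 5 passed against 41.5% of all genes, and at 18 DAF all 5 passed against 15.0%. These rates count calls in either direction, and the number at 10 and 14 DAF was not far from them. Every one of the calls was toward a higher level in the golden line, where 17.1%, 20.4% and 7.99% of all genes were called higher at 10, 14 and 18 DAF. The median log2 difference of the 5 genes was 0.28, 1.15 and 1.78 at 10, 14 and 18 DAF, while the medians over all genes were 0.02, -0.01 and -0.02. Calls at 14 DAF for both H genes and the methyltransferase, and at 18 DAF for Phvul.007G252700, the methyltransferase and Phvul.011G148900, held under all alternatives that were run. Without golden replicate 2 the log2 differences at 18 DAF were 2.41 for Phvul.007G252700, 1.52 for Phvul.001G132200, 1.27 for the methyltransferase and 0.66 for Phvul.005G083700, of which the last no longer passed (edgeR adjusted p = 0.0524).

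**Figure D3:**
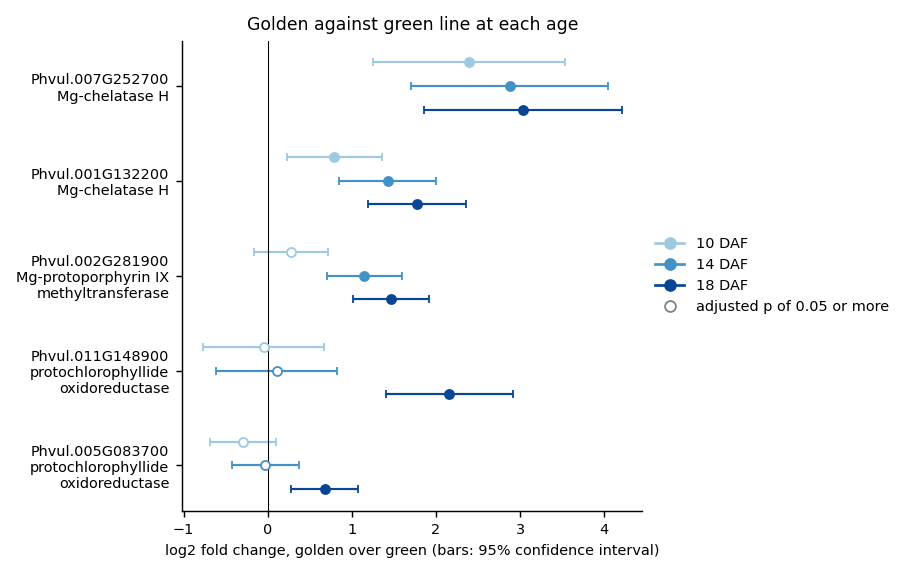
Log2 fold change of golden over green (horizontal axis) for each gene at 10, 14 and 18 DAF, with 95% confidence intervals from the edgeR fit. Filled points passed an adjusted p of 0.05, as all 5 genes did at 18 DAF and as 2 and 3 of them did at 10 and 14 DAF.

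From 10 to 18 DAF Phvul.011G148900 rose in the golden line and fell in the green line, and most changes of the other genes with age did not pass. In the golden line 0 of the 5 genes passed between 14 and 10 DAF by edgeR, where 1.30% of all genes did, and 0 passed by DESeq2 or limma or had an unadjusted p under 0.05. Between 18 and 14 DAF 2 of the 5 passed, against 10.6% of all genes. These were the oxidoreductase genes, Phvul.011G148900 (log2 fold change 1.74, SE 0.35, edgeR adjusted p = 0.00936) and Phvul.005G083700 (log2 fold change 0.85, SE 0.19, edgeR adjusted p = 0.0138), both higher at 18 DAF. Both calls were lost when the 2 groups were fitted alone, and that of Phvul.005G083700 also without golden replicate 2 at 14 DAF. Over 18 against 10 DAF Phvul.011G148900 rose (log2 fold change 1.05, SE 0.34, edgeR adjusted p = 0.0409) as 1 of the 5, against 20.7% of all genes. That call depended on single libraries, and was lost without any 1 of golden replicates 1, 2 and 3 at 10 DAF or replicates 1 and 3 at 18 DAF, and also under scaling by total counts, in limma and when the 2 groups were fitted alone. The other 4 genes had log2 changes of 0.60 (-0.49 to 1.69) for Phvul.007G252700, 0.30 (-0.26 to 0.86) for Phvul.001G132200, 0.53 (0.09 to 0.96) for the methyltransferase and 0.52 (0.12 to 0.92) for Phvul.005G083700, with 95% intervals in parentheses. Before adjustment 3 of the 5 had an edgeR p under 0.05 in golden 18 against 10 DAF.

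In the green line 0 of the 5 genes were called higher at a later age. Between 14 and 10 DAF the methyltransferase was the 1 gene of 5 that passed (log2 fold change -0.71, SE 0.21, edgeR adjusted p = 0.0473), against 8.27% of all genes, and it was lost without any 1 of the 6 libraries. Between 18 and 14 DAF 0 of the 5 passed by edgeR, against 6.95% of all genes, and 0 passed by DESeq2 or limma or had an unadjusted p under 0.05. Over 18 against 10 DAF 2 of the 5 fell, against 34.9% of all genes. They were the methyltransferase (log2 fold change -0.66, SE 0.21, edgeR adjusted p = 0.0225) and Phvul.011G148900 (log2 fold change -1.15, SE 0.34, edgeR adjusted p = 0.0176). The methyltransferase call was lost without green replicate 1 or 3 at 10 DAF or replicate 3 at 18 DAF, and the Phvul.011G148900 call without replicate 2 at 10 DAF or replicate 2 or 3 at 18 DAF. For Phvul.001G132200 and Phvul.005G083700 the log2 changes were -0.69 with a 95% interval of -1.25 to -0.12 (edgeR adjusted p = 0.0568) and -0.45 with a 95% interval of -0.85 to -0.05 (edgeR adjusted p = 0.0732), and Phvul.007G252700 gave -0.04 with a 95% interval of -1.13 to 1.04 (edgeR adjusted p = 0.961). Before adjustment 4 of the 5 had an edgeR p under 0.05 in green 14 against 10 DAF, and 4 in green 18 against 10 DAF.

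The interaction test compares these age changes directly, as the golden change minus the green change. From 10 to 14 DAF 0 of the 5 genes passed by edgeR, against 1.15% of all genes. By DESeq2 and limma 0 passed, and 1 gene, the methyltransferase, had an unadjusted p under 0.05. From 14 to 18 DAF 1 of the 5 passed, Phvul.011G148900 (log2 fold change 2.05, SE 0.48, edgeR adjusted p = 0.0244), against 7.38% of all genes. From 10 to 18 DAF 3 of the 5 passed, against 9.90% of all genes. These were the methyltransferase (log2 fold change 1.19, SE 0.29, edgeR adjusted p = 0.0208), Phvul.011G148900 (log2 fold change 2.21, SE 0.48, edgeR adjusted p = 0.0117) and Phvul.005G083700 (log2 fold change 0.97, SE 0.26, edgeR adjusted p = 0.0320). For the H genes the golden change exceeded the green one by 0.99 with a 95% interval of 0.19 to 1.78 (edgeR adjusted p = 0.106) for Phvul.001G132200 and by 0.64 with a 95% interval of -0.90 to 2.18 (edgeR adjusted p = 0.610) for Phvul.007G252700. The Phvul.011G148900 call from 10 to 18 DAF held under all alternatives that were run, with a log2 value of 2.57 without golden replicate 2. The call from 14 to 18 DAF was lost when its 4 groups were fitted alone and without any 1 of 5 of the 12 libraries, which were golden replicates 1 and 2 and green replicate 1 at 14 DAF, and golden replicate 1 and green replicate 2 at 18 DAF. The methyltransferase call was lost without golden replicate 2 or green replicate 3 at 10 DAF, and the Phvul.005G083700 call without any 1 of 6 libraries, golden replicates 2 and 3 and green replicates 2 and 3 at 10 DAF, and golden replicate 1 and green replicate 2 at 18 DAF.

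**Figure D4:**
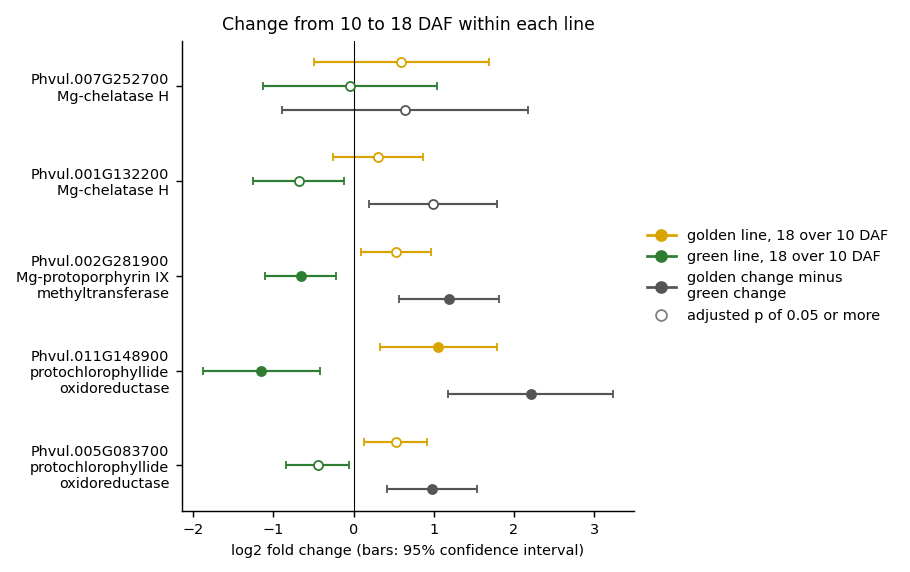
Log2 fold change from 10 to 18 DAF (horizontal axis) in the golden line, in the green line, and their difference, with 95% confidence intervals from the edgeR fit and filled points for an adjusted p under 0.05. Estimates of the 2 lines lie on opposite sides of 0 for all 5 genes, and the difference passed for the methyltransferase and both oxidoreductase genes. The green interval of Phvul.007G252700 (-1.13 to 1.04) and the golden intervals of both H genes include 0, so their directions were not resolved.

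Rubisco genes were read as markers of green tissue. Of 6 such genes 1, 5 and 2 were called higher in the golden line at 10, 14 and 18 DAF, where 17.1%, 20.4% and 7.99% of all genes were, and 0 were lower. The summed level of the 6, genes for the rubisco small subunit and rubisco activase, the carbon-fixing enzyme and its helper, was 8958 to 14620 FPKM in golden and 4428 to 4904 FPKM in green libraries at 10 DAF, and 12955 to 16649 FPKM in golden and 2158 to 4444 FPKM in green libraries at 14 DAF. At 18 DAF it was 3288, 18419 and 4930 FPKM in golden replicates 1, 2 and 3, and 4415, 6125 and 1152 FPKM in green replicates 1, 2 and 3. Golden replicate 2 was thus far above its group in this sum, highest of its group in Phvul.007G252700 and lowest in Phvul.011G148900. Golden replicates 1 and 3 at 18 DAF had a rubisco sum within the range of green libraries, and their Phvul.007G252700 levels of 37.1 and 53.9 FPKM lay above the highest green level of 20.6 FPKM. A sum of 6 genes does not measure green tissue content in full, and the part of that content in the line differences was not tested.

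**Figure D5:**
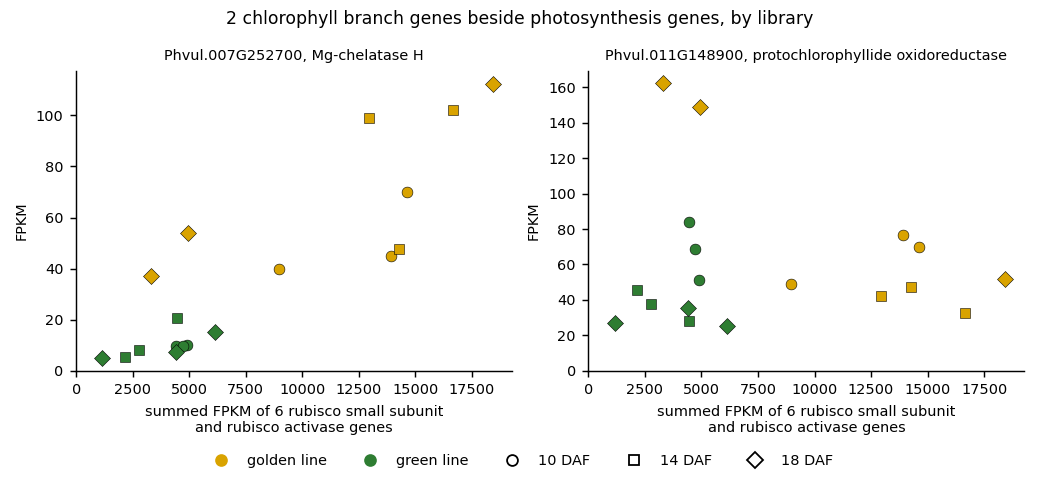
FPKM of Phvul.007G252700 (left) and Phvul.011G148900 (right) against the summed FPKM of 6 rubisco small subunit and rubisco activase genes, with 1 point per library, colour for line and shape for age. Golden replicate 2 at 18 DAF lies at 18419 on the horizontal axis with 112.1 FPKM of the H gene and 52.0 FPKM of the oxidoreductase gene, while the other 2 golden libraries of that age lie at 3288 and 4930.

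A set of 6 clock genes, GIGANTEA, PRR5 and FKF1 homologs, was read because chlorophyll genes are known to follow daily rhythms in Arabidopsis, and it was chosen with its values known. Its sums were 196.4 to 258.5 FPKM in golden and 33.6 to 40.6 FPKM in green libraries at 10 DAF, 233.8 to 309.1 FPKM in golden and 57.3 to 62.9 FPKM in green libraries at 14 DAF, and 112.7 to 162.8 FPKM in golden and 80.2 to 126.2 FPKM in green libraries at 18 DAF. The ranges lay far apart at 10 and 14 DAF and overlapped at 18 DAF. The labels used here give no hour of sampling, and the part of sampling time in the line differences was not tested.

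Other enzymes of the branch, matched by the KEGG orthology number of each gene, were mostly higher in the golden line at the later ages. Genes described as GDSL lipases that carry such a number were left out by description. Of the 11 branch enzyme genes kept, 0 were higher and 1 was lower at 10 DAF, where 17.1% of all genes were called higher and 15.5% lower. At 14 DAF 7 were higher and 1 lower, against 20.4% and 21.2% of all genes, and at 18 DAF 8 were higher and 1 lower, against 7.99% and 6.99%. Their median log2 difference was 0.27, 0.57 and 0.88 at 10, 14 and 18 DAF. Phvul.001G108700, described as the diiron protein Crd1 of the ring-closing cyclase, averaged 318, 362 and 448 FPKM in golden and 241, 173 and 178 FPKM in green libraries at 10, 14 and 18 DAF, with a log2 difference of 1.05 at 14 DAF (edgeR adjusted p = 0.00188) and 1.48 at 18 DAF (edgeR adjusted p = 4.97e-04). Phvul.003G189600, a geranylgeranyl reductase homolog that acts on the chlorophyll side chain, differed by 1.02 at 14 DAF (edgeR adjusted p = 0.00187) and 1.87 at 18 DAF (edgeR adjusted p = 6.93e-05).

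The partner subunits of the chelatase did not all follow the H genes. Phvul.006G178400, the more abundant I subunit gene, averaged 145, 126 and 113 FPKM in golden and 118, 61.5 and 64.4 FPKM in green libraries at 10, 14 and 18 DAF, and was higher in the golden line at 14 DAF (log2 1.02, edgeR adjusted p = 0.00506) and 18 DAF (log2 0.96, edgeR adjusted p = 0.0178). The less abundant I subunit gene Phvul.003G057600 averaged 2.07, 1.84 and 2.04 FPKM in golden and 4.73, 6.20 and 4.47 FPKM in green libraries and was lower at all 3 ages, with log2 differences of -1.18, -1.77 and -1.02 (edgeR adjusted p = 0.00370, 2.49e-04 and 0.0167). The D subunit gene Phvul.002G165600, described as ALBINA 1, passed at 14 DAF (log2 0.68, edgeR adjusted p = 0.0404), and its log2 differences at 10 and 18 DAF were -0.36 and 0.58 with adjusted p of 0.286 and 0.138. Phvul.008G096500, which carries the orthology number of chlorophyll synthase, did not pass at any age, with log2 differences of -0.31, -0.10 and -0.11.

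Of 8 genes matched to the branch by description, 1 was higher and 0 lower in the golden line at 10 DAF, 5 and 1 at 14 DAF, and 4 and 1 at 18 DAF, with medians of 0.01, 0.67 and 0.58. All genes were called higher and lower at rates of 17.1% and 15.5%, 20.4% and 21.2%, and 7.99% and 6.99% at these ages. Besides Crd1, ALBINA 1 and Phvul.008G096500 named above, the list held genes matched by words of their description alone. Phvul.008G024400, described as genomes uncoupled 1, a plastid signalling protein in Arabidopsis, was higher at all 3 ages (log2 0.47, 0.65 and 0.58; edgeR adjusted p = 0.0167, 0.00188 and 0.0106). Phvul.002G181400, described as a geranylgeranyl reductase, and Phvul.002G210750, a UbiA prenyltransferase family gene, were higher at 14 DAF (log2 0.69 and 0.85; edgeR adjusted p = 0.00134 and 0.00401) and 18 DAF (log2 0.58 and 0.62; edgeR adjusted p = 0.0103 and 0.0494). Phvul.008G268100, also described as a geranylgeranyl reductase, stayed between 0.162 and 4.02 FPKM in group means and was lower at 18 DAF (log2 -2.11, edgeR adjusted p = 0.0426). Phvul.009G242200, described as a pigment defective gene, was lower at 14 DAF (log2 -0.59, edgeR adjusted p = 0.00321). The orthology numbers of Phvul.002G181400, Phvul.002G210750 and Phvul.008G268100 are not among those of the branch enzymes.

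Upstream of the branch, 10 genes of the steps shared with haem gave 2 higher and 2 lower at 10 DAF, 7 higher and 0 lower at 14 DAF, and 5 higher and 0 lower at 18 DAF, with medians of -0.06, 0.58 and 0.63. At 10 DAF these counts were close to the 17.1% and 15.5% of all genes, and the shares at 14 and 18 DAF were 20.4% and 7.99% of all genes higher. Phvul.008G185100, a glutamyl-tRNA reductase gene for the entry step, averaged 93.6, 82.4 and 98.0 FPKM in golden and 58.3, 30.6 and 24.9 FPKM in green libraries, and its log2 difference was 0.69, 1.42 and 2.13 at 10, 14 and 18 DAF (edgeR adjusted p = 0.0467, 7.37e-04 and 1.12e-04). Within the green line, 8 of the 10 fell and 1 rose from 10 to 18 DAF, against 15.6% and 19.3% of all genes, and in the golden line 0 fell and 1 rose, against 9.37% and 11.3%. The interaction from 10 to 18 DAF passed for 4 of the 10, all positive, against 3.77% of all genes called positive.

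Of 8 genes matched to chlorophyll breakdown by description, 3, 5 and 4 were called higher in the golden line at 10, 14 and 18 DAF, against 17.1%, 20.4% and 7.99% of all genes, and 0 were lower. Phvul.002G153100, described as non-yellowing 1, which removes magnesium from chlorophyll in Arabidopsis, averaged 83.2, 87.4 and 83.3 FPKM in golden and 5.81, 18.7 and 31.3 FPKM in green libraries. Its log2 difference was 3.84, 2.23 and 1.56 at 10, 14 and 18 DAF (edgeR adjusted p = 1.07e-05, 3.95e-04 and 0.00870). The breakdown list matched by description also holds Phvul.008G161000 and Phvul.008G167850, which by orthology number are chlorophyllide a oxygenase, the enzyme that makes chlorophyll b, and which are counted among the branch enzymes too. Of 89 photosystem and antenna genes, 25, 65 and 66 were higher at 10, 14 and 18 DAF, against the same 17.1%, 20.4% and 7.99% of all genes, and 0 were lower, with medians of 0.60, 1.26 and 1.19. The broad KEGG class of porphyrin and chlorophyll metabolism had 138 tested genes, of which 26, 52 and 20 were higher at 10, 14 and 18 DAF, against 17.1%, 20.4% and 7.99% of all genes, and 15, 16 and 12 lower, against 15.5%, 21.2% and 6.99%. Several genes of that class have descriptions unrelated to porphyrins.

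Among 14 genes described as phytochrome interacting factors, ferrochelatases or haem oxygenase, 3 were higher and 2 lower at 10 DAF, 5 higher and 2 lower at 14 DAF, and 1 higher and 1 lower at 18 DAF. These numbers at 10 and 18 DAF were about the rates of all genes, 17.1% and 15.5% at 10 DAF and 7.99% and 6.99% at 18 DAF, and at 14 DAF the rates were 20.4% and 21.2%. Phytochrome interacting factors hold back chlorophyll synthesis genes in dark-grown Arabidopsis seedlings. Phvul.007G208500, described as phytochrome interacting factor 3, averaged 1.38, 0.699 and 0.133 FPKM in golden and 7.38, 6.24 and 5.01 FPKM in green libraries. Its log2 difference was -2.42, -3.17 and -5.07 at 10, 14 and 18 DAF (edgeR adjusted p = 0.00476, 8.38e-04 and 1.50e-04), and it fell with age in the golden line (log2 -3.17 from 10 to 18 DAF, edgeR adjusted p = 0.00316). Phvul.007G156200, described as phytochrome interacting factor 3-like 5, went the other way, with 1.45, 1.28 and 0.81 (edgeR adjusted p = 6.27e-04, 0.00114 and 0.0365). Phvul.002G278100, described as ferrochelatase 2 of the haem side, was higher in the golden line at 10 DAF (log2 1.83, edgeR adjusted p = 0.00155) and had a log2 difference of -0.13 at 18 DAF (edgeR adjusted p = 0.847). Its interaction from 10 to 18 DAF was -1.95 (edgeR adjusted p = 0.0228). In the green line Phvul.004G148200, described as ferrochelatase 1, rose from 10 to 18 DAF (log2 1.17, edgeR adjusted p = 3.41e-04), and Phvul.001G019900, described as heme oxygenase 2, fell by 0.94 on the log2 scale (edgeR adjusted p = 3.85e-04).

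Across the 18 libraries the H genes and the methyltransferase were more alike than they were to the oxidoreductase genes. Pearson's r of log2 CPM was 0.92 between the H genes, 0.95 between Phvul.001G132200 and the methyltransferase, and 0.84 between Phvul.007G252700 and the methyltransferase. It was 0.77 between the oxidoreductase genes, and with Phvul.011G148900 and Phvul.005G083700 it was 0.29 and 0.08 for Phvul.007G252700, 0.53 and 0.37 for Phvul.001G132200, and 0.58 and 0.52 for the methyltransferase. These values describe libraries that share lines and ages, which by themselves give genes a common pattern. Among 14802 genes of at least 5 FPKM on average, those most like Phvul.007G252700 were Phvul.002G190900, described as an FtsH protease (r = 0.98), Phvul.002G152800, described as PGR5-like A (r = 0.98), and Phvul.002G000800, an FAD/NAD(P)-binding oxidoreductase (r = 0.98). Nearest to Phvul.001G132200 were Phvul.011G000750, a SNARE-associated Golgi protein (r = 0.98), the glutamyl-tRNA reductase gene Phvul.008G185100 (r = 0.97) and the phytoene synthase gene Phvul.008G195800 (r = 0.97). The methyltransferase was nearest to Phvul.008G185100 (r = 0.96), the protein phosphatase 2C gene Phvul.003G252300 (r = 0.96) and Phvul.009G190100 of unknown function (r = 0.96). The oxidoreductase genes had no match as close. Phvul.011G148900 was nearest to Phvul.001G025000, an Ntn hydrolase (r = 0.86), Phvul.004G023500, a sugar isomerase (r = 0.83), and Phvul.007G070001, a copper transport protein (r = 0.83). Phvul.005G083700 was nearest to Phvul.009G036600, an aspartase-like protein (r = 0.83), Phvul.010G163400 of the YGGT family (r = 0.83) and Phvul.011G118400, a hydrolase (r = 0.82).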

How the data were processed

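RNA of 18 libraries from 2 lines and 3 ages was enriched for poly(A) RNA and sequenced as read pairs, per the labels' protocols, whose text also mentions an adipose type that was not resolved. The authors deposited estimated counts per gene in whole numbers and FPKM values in 1 table, per the file headers. Which aligner, counter, genome build and strand setting they used is not given in the sources used here. At 1 to 3 counts FPKM per count was 0.936 of a gene's usual ratio (median), so low values are less exact. Gene names and descriptions are those of the table. The 635 genes with an identifier but no name, with 2.20% to 3.97% of counts, stayed in library totals and tests, and 0 per-sample columns were without a sample.

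Counts as deposited entered edgeR 4.0.16 (R 4.3.3): expression filter (22805 genes kept, 2319 dropped), TMM scaling, 1 mean per group, a two-sided quasi-likelihood test and Benjamini-Hochberg adjustment over all kept genes. Called means an adjusted p under 0.05 at any fold. With a common dispersion of 0.155 and 12 residual degrees of freedom, the replicate spread set the precision more than depth did. Ratios of gene pairs were tested by exact permutation of line labels within ages. The edgeR code was run on counts simulated with the dispersions fitted here, which checks the code and not the fit to these data. DESeq2 1.42.0 and limma 3.58.1 on log2(FPKM + 1), or with 0.1 added, were alternatives, as were other scaling and filters, the groups of a comparison alone, a replicate block and leaving out each library.

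The 5 genes and the lists were chosen with earlier results of these data known. The list by orthology number and the clock genes were added after the table was seen. Every gene of the list by description is named. Of the regulators, those with the lowest p in the line comparisons and in the changes from 10 to 18 DAF are named. Genes of like pattern are the 3 with the highest r. Other genes were named after their values were seen.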

Additional observations from a re-analysis of the deposited data

Results flagged for a closer look

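The age change differed between the lines by a test of the difference itself in 4 cases. From 14 to 18 DAF the golden change of Phvul.011G148900 exceeded the green change by 2.05 on the log2 scale (SE 0.48, edgeR adjusted p = 0.0244). It rose within the golden line (log2 fold change 1.74, SE 0.35, edgeR adjusted p = 0.00936), and the green change was -0.31 with a 95% interval of -1.03 to 0.42 (edgeR adjusted p = 0.614). From 10 to 18 DAF the difference was 2.21 (SE 0.48, edgeR adjusted p = 0.0117) for the same gene, 1.19 (SE 0.29, edgeR adjusted p = 0.0208) for the methyltransferase Phvul.002G281900 and 0.97 (SE 0.26, edgeR adjusted p = 0.0320) for Phvul.005G083700. The call of Phvul.011G148900 from 10 to 18 DAF held under all alternatives that were run, and each of the other calls was lost under some of them.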

How the results depend on the processing

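For the 5 genes 60 log2 values were recomputed under 990 alternatives in all. Direction and side of the threshold stayed in 874, 50 lost the call, 24 gained it and 42 changed sign. Of the 20 called values 0 changed sign, and 8 passed under every alternative. The median log2 value of all genes was -0.17 under scaling by total counts and -0.19 in limma with an added 0.1 for golden 18 against 14 DAF, where TMM scaling gave 0.00173. For golden against green at 18 DAF it was -0.13 under total counts and -0.02 with TMM.

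With the groups of a comparison alone, the number of the 5 genes called was 3 in golden against green at 18 DAF, 0 in both golden changes to 18 DAF, 3 in green 14 against 10 DAF, 1 in the interaction from 10 to 14 DAF and 0 in that from 14 to 18 DAF. DESeq2 called 2 in golden 18 against 10 DAF, 3 in green 14 against 10 DAF, 4 in green 18 against 10 DAF and 2 in the interaction from 14 to 18 DAF. Both limma fits and total counts called 0 in golden 18 against 10 DAF, 2 in green 14 against 10 DAF and 4 in green 18 against 10 DAF. The filter at 5 FPKM called 2 and 4 in these green comparisons. Leaving out 1 library gave 1 to 2 in golden against green at 10 DAF and in golden 18 against 14 DAF, 0 to 1 in golden 18 against 10 DAF, 0 in green 14 against 10 DAF, 0 to 3 in green 18 against 10 DAF, 0 to 2 in the interaction from 14 to 18 DAF and 1 to 3 in that from 10 to 18 DAF.

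Values that changed sign were all uncalled. In green 14 against 10 DAF limma gave -0.0105 and -0.0293 (added 0.1) for Phvul.007G252700. In green 18 against 14 DAF total counts gave -0.0331 for Phvul.001G132200 and -0.0013 for Phvul.002G281900, limma gave -0.0702 and -0.0723 (added 0.1) for the H gene and -0.0272 and -0.0282 (added 0.1) for the methyltransferase, and the filter at 5 FPKM gave -0.0143 for Phvul.001G132200. In the interaction from 14 to 18 DAF limma gave -0.17 and -0.16 for Phvul.007G252700. Without 1 library, Phvul.011G148900 ran from -0.20 to 0.13 and from -0.11 to 0.34 between the lines at 10 and 14 DAF and from -0.0295 to 0.38 in the interaction from 10 to 14 DAF. Phvul.005G083700 ran from -0.23 to 0.11 between the lines at 14 DAF, and Phvul.001G132200 from -0.19 to 0.0731 in golden 14 against 10 DAF and from -0.17 to 0.27 in green 18 against 14 DAF. Phvul.002G281900 ran from -0.0577 to 0.24 in green 18 against 14 DAF. Phvul.007G252700 ran from -0.71 to 0.23 (golden 18 against 14 DAF), -0.0525 to 0.89 (golden 18 against 10 DAF), -0.54 to 0.49 (green 14 against 10 DAF), -0.75 to 0.45 (green 18 against 14 DAF), -0.57 to 0.24 (green 18 against 10 DAF) and -0.51 to 0.69 (interaction from 14 to 18 DAF). The cause was not tested.

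Same-numbered replicates were no more alike than others: their deviations from the group means correlated at a median of -0.03, and 5 of 45 pairs were over 0.1. Pairs with different numbers had a median of 0.015, and 14 of 90 were over 0.1. With 3 libraries per group this measure cannot show that no block was shared. A replicate block took the calls in green 14 against 10 DAF to 0 and changed no other count of the 5 genes. In the ratio tests the block gave exact permutation p = 0.00391 and p = 0.0273, with differences of 1.45 and 0.59, and all alternatives gave 1.33 to 1.56 and 0.50 to 0.77. The share of all genes called ranged over the alternatives from 20.6% to 50.1% in golden against green at 10 DAF, 31.2% to 49.7% at 14 DAF and 2.96% to 21.3% at 18 DAF, so the background of each count moves too.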
